A study of Mus musculus with 15 samples.

Results

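The genes described here are the 53 rows of the deposited tables that belong to the mouse major histocompatibility complex (MHC, called H2 in the mouse) or to the machinery that supplies it with peptide, out of 24421 genes. They are all 43 rows whose symbol begins with H2-, together with B2m, Tap1, Tap2, Tapbp, Cd74, Ciita, Nlrc5, Psmb8, Psmb9 and Psmb10, and 40 of them were counted as class I, 12 as class II and 1, H2-Ke6, as neither. Poly(A) RNA was sequenced from 15 mouse brain tumour samples, 3 in each of 5 groups: HGG tumours labelled Sox9-LOF, HGG Sox9-GOF, HGG control, EPN Sox9-GOF and EPN control. HGG and EPN are high-grade glioma and ependymoma in the usual reading of these letters, and LOF and GOF stand for loss and gain of function of Sox9, a transcription factor of glial cells. The same 3 HGG control libraries serve both HGG comparisons. The labels give no strain, age, promoter, transgene or method by which Sox9 was changed, and do not say whether replicates came from separate animals, so p-values measure only the spread between these samples, which may be technical.

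MHC class I molecules are made by nearly all nucleated cells and show peptides from the inside of the cell to CD8 T cells. Each consists of an H2 heavy chain and beta-2 microglobulin (B2m), and is loaded with peptides that the immunoproteasome subunits Psmb8, Psmb9 and Psmb10 help to cut, that the transporter Tap1-Tap2 carries into the endoplasmic reticulum, and that tapasin (Tapbp) helps to fit. MHC class II molecules pair an alpha and a beta chain, travel with the invariant chain Cd74, receive their peptides with the help of H2-DM, and show them to CD4 T cells. They are made mainly by B cells, dendritic cells, macrophages and activated microglia, and their genes depend on the coactivator Ciita as class I genes depend in part on Nlrc5. In bulk tumour RNA, fewer cells of a type and less RNA per cell cannot be told apart.

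Class I and class II promoters carry short conserved boxes, and the 200 bases before the start of 4 chain genes whose levels are followed below are shown for that reason. The sequences are from RefSeq (build GRCm38.p6), whose table used here holds a promoter for 37 of the 53 members, and capitals mark every match to 4 motifs searched on both strands: the Y box CTGATTGG (bound by NF-Y), the cyclic AMP element TGACGTCA, the RFX core CAACNGATG and the NF-kB site GGGANTCCC.
H2-Aa (chr17:34287824-34288023, minus strand): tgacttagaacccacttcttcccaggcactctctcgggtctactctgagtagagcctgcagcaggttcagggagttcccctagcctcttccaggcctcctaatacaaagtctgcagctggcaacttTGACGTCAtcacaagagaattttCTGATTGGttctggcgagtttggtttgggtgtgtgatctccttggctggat
H2-Eb1 (chr17:34305667-34305866, plus strand): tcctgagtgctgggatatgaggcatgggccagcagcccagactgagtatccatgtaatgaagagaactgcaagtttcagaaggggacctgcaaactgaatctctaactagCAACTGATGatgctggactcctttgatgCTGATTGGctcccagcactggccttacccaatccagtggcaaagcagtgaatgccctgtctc
H2-K1 (chr17:34000348-34000547, minus strand): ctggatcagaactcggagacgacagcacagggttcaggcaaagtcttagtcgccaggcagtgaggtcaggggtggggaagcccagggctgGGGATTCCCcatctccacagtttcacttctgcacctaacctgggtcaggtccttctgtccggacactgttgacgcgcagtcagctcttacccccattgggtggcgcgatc
H2-D1 (chr17:35262894-35263093, plus strand): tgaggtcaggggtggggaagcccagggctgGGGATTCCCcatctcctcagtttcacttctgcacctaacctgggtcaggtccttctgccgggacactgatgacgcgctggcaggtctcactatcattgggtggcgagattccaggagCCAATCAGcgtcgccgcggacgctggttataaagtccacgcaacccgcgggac
In the H2-Aa window the cyclic AMP element lies 74 to 67 bases and the Y box 51 to 44 bases before the start. The H2-Eb1 window holds the RFX core 90 to 82 bases and the Y box 62 to 55 bases before the start. The NF-kB site lies 110 to 102 bases before the start of H2-K1 and 170 to 162 bases before that of H2-D1, and the H2-D1 window also holds the Y box on the minus strand, 53 to 46 bases before the start. The matches in these windows do not overlap each other, except that the cyclic AMP element and the NF-kB site read the same on both strands. The H2-K1 and H2-D1 windows share a run of 46 identical bases. The start used for H2-D1 is that of RefSeq and lies inside the longer GENCODE gene. Among all 32851 promoter windows of the same length, 3.54% hold the Y box, 1.47% the cyclic AMP element, 0.371% the RFX core and 0.469% the NF-kB site. The Y box stands in 4 of the 8 class II members with a window (H2-Aa, H2-Eb1, H2-Eb2 and H2-Oa) and in 13 of the 28 class I members, and the cyclic AMP element in 1 of 8 (H2-Aa) and 0 of 28. The RFX core is in 2 of 8 class II members (H2-Eb1 and H2-Eb2) and 0 of 28 class I members, and the NF-kB site is in 0 of 8 class II members and in 4 of 28 class I members (H2-D1, H2-K1, H2-Q6 and H2-Q7). These matches describe letters only. The motif letters were set after the sequences had been seen, so setting the members beside all windows is no test. Near-identical copies such as H2-Q6 and H2-Q7 count as separate members.

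The number of reads assigned to genes ranged between 4665428 and 14119140 per library, and the shallowest library was HGG control 2. Levels below are rescaled counts, that is, reads per gene divided by a size factor computed over all 15 libraries. Sox9 itself had 739, 579 and 395 rescaled counts in the HGG libraries labelled Sox9-LOF, 1275, 1537 and 1391 in HGG tumours with Sox9-GOF and 218, 285 and 310.3 in HGG control. It had 2055, 1834 and 2692 in EPN Sox9-GOF and 1045, 1040.2 and 1189 in EPN control. The Sox9 transcript was thus above the HGG controls in every library labelled Sox9-LOF, which goes against that label at the RNA level, and what the label means for the protein cannot be read from these counts. Markers of glial and tumour cells (10 of 10 found, summed) ranged between 31568 and 95539.7 rescaled counts in the 15 libraries. Those of microglia and macrophages (14 of 14 found) ranged between 13879.5 and 68238. The glial sum was 81543, 95539.7 and 67496.5 in HGG labelled Sox9-LOF and 49876, 71943 and 94475 in HGG Sox9-GOF. It was 49220, 82959 and 53779 in HGG control. Choroid plexus markers (6 of 6) summed to 443, 126 and 24490 in HGG labelled Sox9-LOF and 90.4, 104 and 9698 in HGG Sox9-GOF. They summed to 109329, 127 and 56.8 in HGG control and at most 209 in EPN. Neuron markers (6 of 6) ranged between 1951 and 32778. The part of these cells in the MHC values was not tested. HGG control 2 stood apart from its group in the MHC genes, so class medians, counts of members and the main values set against the HGG controls are also given without it.

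Of the 53 members, 38 reached a mean of 10 rescaled counts over the 15 libraries: 25 of 40 class I, all 12 class II, and H2-Ke6. The other 15, all class I, included 7 with 0 reads in every library (H2-M10.5, H2-M10.6, H2-Q6, H2-Q7, H2-Q8, H2-Q9 and H2-T9). H2-Q6 to H2-Q9 are near-identical copies in the Qa region, so a count of 0 there may mean only that reads fitting several copies were not assigned, and levels of the H2-Q and H2-T genes that were measured carry the same uncertainty. By the GENCODE annotation of GRCm38, 44 members lie on chromosome 17, where the H2 complex runs; B2m is on chromosome 2 (chr2:122147686-122153083), Ciita on chromosome 16, Cd74 on chromosome 18, and Nlrc5 and Psmb10 on chromosome 8. H2-L, H2-Q8, H2-Q9 and H2-T9 were not matched to it. H2-Ea-ps, H2-Bl, H2-Q5 and H2-T10 are annotated as polymorphic pseudogenes, that is, genes intact in some mouse strains and broken in the reference strain, and H2-K2 as a transcribed pseudogene.

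Among class I members, B2m, the light chain shared by all class I molecules, was the most abundant per length, with group means between 15537 and 33485 rescaled counts per kilobase of exon, against 3043 to 10364 for H2-K1 (chr17:33996017-34000347), a classical class I heavy chain. H2-K1 had 5749.8, 6762 and 14309.8 rescaled counts in the HGG libraries labelled Sox9-LOF, 26668, 11014 and 15204 in HGG tumours with Sox9-GOF and 42659.8, 6880.3 and 35364 in HGG control. It had 40729.5, 34993 and 15626 in EPN Sox9-GOF and 26719, 26400 and 10224 in EPN control. In each group 1 library lay well apart, the third high among those labelled Sox9-LOF, the first high in HGG Sox9-GOF, the second low in HGG control and the third low in both EPN groups, and the 3 HGG groups overlapped each other, as the EPN groups did. B2m had the same libraries high and low, with 8905, 10763 and 20418 rescaled counts in the HGG libraries labelled Sox9-LOF, 33964, 14844 and 22174 in HGG tumours with Sox9-GOF, 37741, 11415 and 37236 in HGG control, 32391, 29922 and 14832 in EPN Sox9-GOF and 23368, 26354 and 13082 in EPN control. The other classical heavy chain measured at a high level, H2-D1 (chr17:35262730-35267499), had 918, 1375 and 2442 in the HGG libraries labelled Sox9-LOF, 13384, 1983 and 8016 in HGG tumours with Sox9-GOF and 22703, 7403 and 25028 in HGG control. All 3 libraries labelled Sox9-LOF, and HGG Sox9-GOF 2, were below every HGG control for H2-D1. In the EPN groups it had 20611, 14382 and 8669.8 in Sox9-GOF and 10546, 15785 and 7048 in control, which overlapped.

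The nonclassical class I genes spanned a wide range of levels. H2-Q4 was the highest of them per length in the HGG groups, with means of 1388 rescaled counts per kilobase in the HGG libraries labelled Sox9-LOF, 2672 in HGG tumours with Sox9-GOF and 4111 in HGG control. H2-T23, which encodes Qa-1, a ligand of NK cell receptors, had 1622, 1269 and 3086 rescaled counts in the HGG libraries labelled Sox9-LOF, 5076, 2188 and 4471 in HGG tumours with Sox9-GOF and 3494, 1669 and 4376 in HGG control, and all 3 groups overlapped. H2-M3, which presents formylated peptides such as those of bacteria, had 134, 101 and 317 rescaled counts in the HGG libraries labelled Sox9-LOF, 528, 285 and 360.4 in HGG tumours with Sox9-GOF and 579, 170.2 and 631 in HGG control. The 3 libraries labelled Sox9-LOF thus reached at most 317 for H2-M3, while the highest library overall was EPN Sox9-GOF 1 with 1076. H2-M2 had 57.7, 92.4 and 0 in EPN Sox9-GOF and 34.9, 36.1 and 1.56 in EPN control, and H2-T24 had 458, 585 and 267 in EPN Sox9-GOF and 604, 387 and 185 in EPN control, so these genes too were low in the third library of each EPN group.

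The genes that feed class I with peptide varied in the same libraries. Tap1, a subunit of the peptide transporter, had 889, 747 and 1543 rescaled counts in the HGG libraries labelled Sox9-LOF, 4374, 1331 and 2282 in HGG tumours with Sox9-GOF and 6668, 1052 and 4985 in HGG control. Psmb9, an immunoproteasome subunit induced by interferon gamma, had 459, 271 and 1124 rescaled counts in the HGG libraries labelled Sox9-LOF, 3026, 792 and 1198 in HGG tumours with Sox9-GOF and 4948, 387 and 3566 in HGG control. Nlrc5, the class I coactivator, had 520.3, 333 and 1505 rescaled counts in the HGG libraries labelled Sox9-LOF, 2024, 916 and 1134 in HGG tumours with Sox9-GOF and 3836, 418 and 2457 in HGG control. For these 3 genes HGG control 1 and 3 were the highest of the 9 HGG libraries, and HGG control 2 was among the 3 lowest. In EPN tumours Tap1 averaged 2835 ± 1694 in EPN Sox9-GOF and 1827 ± 1076 in EPN control, and Nlrc5 787 ± 438 in EPN Sox9-GOF and 576 ± 363 in EPN control (SD, n = 3 each). Psmb9 averaged 1955 ± 933 in EPN Sox9-GOF and 1170.2 ± 583 in EPN control (SD, n = 3 each). In all 3 genes the EPN groups overlapped. Tapasin (Tapbp) had 4981, 6124 and 5349 in EPN Sox9-GOF and 5090.4, 6408 and 2969.9 in EPN control. Both EPN means were above those of the HGG groups, which were 1318 ± 197 in the HGG libraries labelled Sox9-LOF, 2042 ± 1037 in HGG tumours with Sox9-GOF and 3415 ± 2144 in HGG control (SD, n = 3 each), although HGG control 1 and 3 lay within the range of the EPN libraries.

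**Figure D1:**
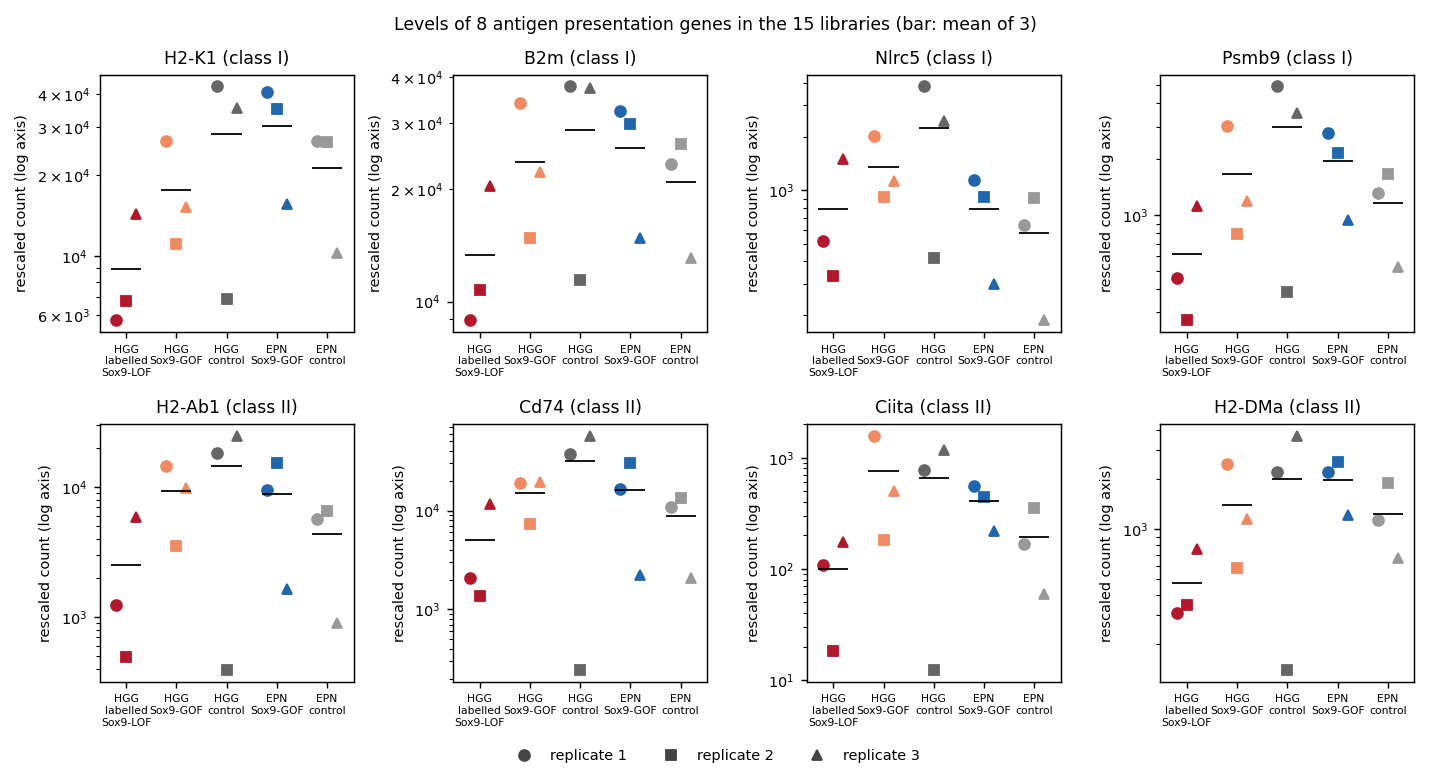
Rescaled counts (log axis) of 4 class I and 4 class II members in each library, by group, with replicates as separate symbols and the group mean as a bar. HGG control 2 is the low point of its group in every panel, at 244 for Cd74 against 37581 and 56721 in the other HGG controls.

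Among class II members the invariant chain Cd74 was the most abundant per length in all 5 groups, with group means between 3006 and 18770.3 rescaled counts per kilobase. It had 2078, 1359 and 11706 rescaled counts in the HGG libraries labelled Sox9-LOF, 18974, 7329 and 19239.8 in HGG tumours with Sox9-GOF and 37581, 244 and 56721 in HGG control. It had 16557, 30062 and 2216 in EPN Sox9-GOF and 10911, 13496 and 2100.3 in EPN control. The HGG controls thus held both the highest and the lowest Cd74 level of the 15 libraries, 232-fold apart. The A beta chain H2-Ab1 (chr17:34257689-34269419) had 1243, 493 and 5849.9 rescaled counts in the HGG libraries labelled Sox9-LOF, 14608, 3527 and 9853 in HGG tumours with Sox9-GOF and 18390.3, 392 and 24677 in HGG control. Its partner, the A alpha chain H2-Aa (chr17:34282744-34287823), had 1474, 448 and 6227 rescaled counts in the HGG libraries labelled Sox9-LOF, 18844, 4787 and 15529.7 in HGG tumours with Sox9-GOF and 15830.2, 107 and 23426 in HGG control. Ciita, the coactivator that class II transcription needs, had 108, 18.2 and 176 rescaled counts in the HGG libraries labelled Sox9-LOF, 1569.8, 183 and 506 in HGG tumours with Sox9-GOF and 782, 12.3 and 1168 in HGG control. Cd74 and each of these 3 genes were lowest in HGG control 2 among the 9 HGG libraries, and every HGG Sox9-GOF library was above the first and second library labelled Sox9-LOF. In EPN tumours H2-Ab1 averaged 8795 ± 6856 in EPN Sox9-GOF and 4374 ± 3042 in EPN control, and Ciita 406 ± 172 in EPN Sox9-GOF and 194 ± 149.7 in EPN control (SD, n = 3 each).

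H2-DMa and H2-DMb1, the chains of the peptide exchange factor H2-DM, ran lower per length than H2-Ab1 and H2-Aa in all 5 groups. H2-DMa averaged 136 rescaled counts per kilobase in the HGG libraries labelled Sox9-LOF, 405 in HGG tumours with Sox9-GOF and 582 in HGG control, where H2-Ab1 averaged 985, 3633 and 5641 in the same order. H2-Oa and H2-Ob, the chains of H2-O, which tempers H2-DM and is known from B cells and some dendritic cells, were lower than H2-DMa and H2-DMb1 in all 5 groups, H2-Oa averaging 23.2 rescaled counts per kilobase in the HGG libraries labelled Sox9-LOF, 101 in HGG tumours with Sox9-GOF and 122 in HGG control. H2-Oa ranged between 20.5 and 424 rescaled counts within HGG control alone. H2-Ea-ps, the E alpha chain gene, had 0 reads in HGG Sox9-GOF 2 and all 3 libraries labelled Sox9-LOF, but 4296, 6.15 and 4600.4 rescaled counts in HGG control. The E beta chain H2-Eb1 (chr17:34305867-34316674) had 262, 5671 and 556 in EPN Sox9-GOF and 64.4, 132 and 10.9 in EPN control, the one member whose EPN groups did not overlap. Ranked by group mean, HGG control was highest for 16 of 25 class I and 7 of 12 class II members, and the libraries labelled Sox9-LOF were lowest for 15 of 25 and 9 of 12. For 22 of 25 class I and 10 of 12 class II members every pair of neighbours in that order overlapped. Neither the ranks nor the overlaps were counted over all genes, and members tended to be extreme in the same libraries. These counts thus do not set the members apart from other genes.

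Replicates of 1 group lay further apart in class II than in class I genes. The SD within groups on the log2(rescaled count + 1) scale, pooled over the 5 groups, had a median of 1.99 over the 12 class II members, 0.904 over the 25 class I members and 0.400 over the 15109 genes with a mean of at least 10. All 12 class II members and 6 of 25 class I members were above the 90th percentile of all genes. In the HGG controls the highest library exceeded the lowest 219.7-fold for H2-Aa, 183-fold for H2-Eb1, 95.0-fold for Ciita and 63.0-fold for H2-Ab1, against 12.8-fold for Psmb9, 9.17-fold for Nlrc5, 6.20-fold for H2-K1 and 3.31-fold for B2m. Members tended to be extreme in the same library: HGG control 2 was the lowest of its group for 24 of 25 class I and 12 of 12 class II members, EPN control 3 for 25 of 25 and 12 of 12, and EPN Sox9-GOF 3 for 23 of 25 and 10 of 12. The third library labelled Sox9-LOF was the highest of its group for 25 of 25 class I and 11 of 12 class II members, and HGG Sox9-GOF 1 for 24 of 25 and 9 of 12.

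**Figure D2:**
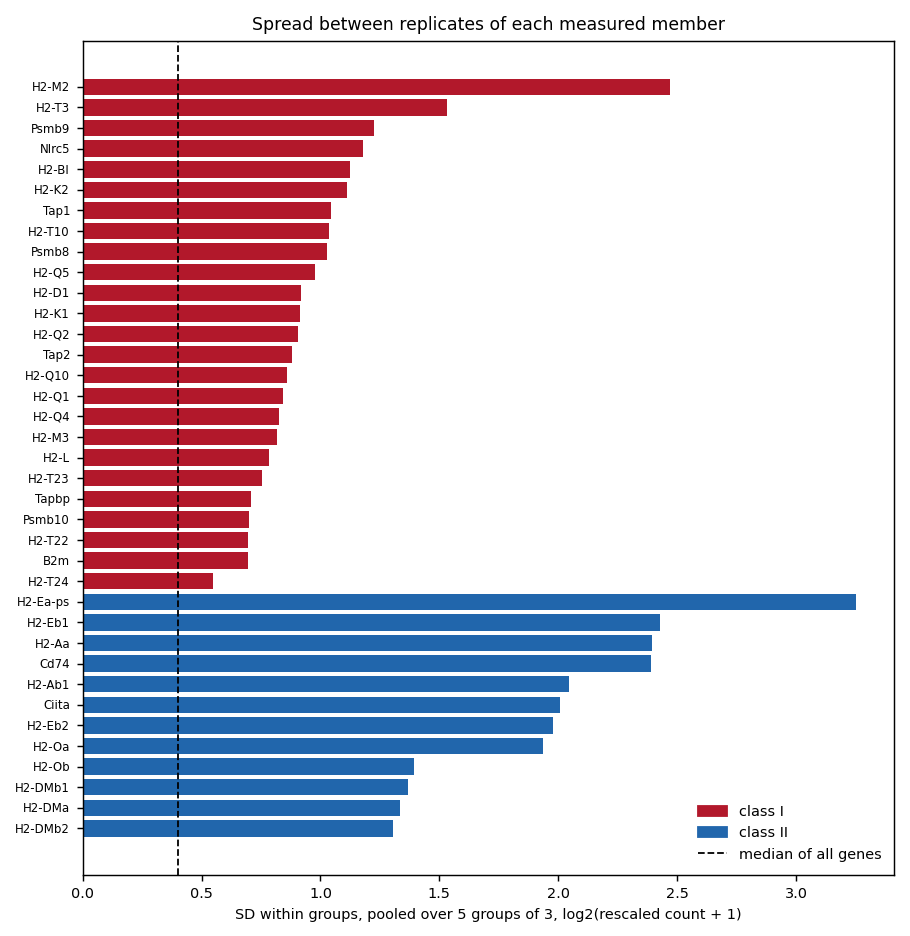
SD between replicates within a group, pooled over the 5 groups of 3, on the log2(rescaled count + 1) scale, for each of the 25 class I (red) and 12 class II (blue) members, with the median of all genes as a dashed line. Every member lies right of that median of 0.400, and the class II bars run between 1.31 and 3.25.

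A class mean per library, in which each gene enters as its log2(rescaled count + 1) less its own average across the 15 libraries, gives the classes side by side. For class II it was -1.66, -2.47 and -0.13 in the HGG libraries labelled Sox9-LOF, 2.01, -0.51 and 1.26 in HGG tumours with Sox9-GOF and 2.05, -3.20 and 2.69 in HGG control, and 0.87, 1.55 and -0.78 in EPN Sox9-GOF and -0.16, 0.43 and -1.96 in EPN control. For class I it was -0.96, -0.98 and 0.14 in the HGG libraries labelled Sox9-LOF, 0.98, -0.098 and 0.23 in HGG tumours with Sox9-GOF and 1.114, -1.03 and 1.01 in HGG control. In the EPN groups class I was at 0.76, 0.85 and -0.90 in Sox9-GOF and 0.15, 0.16 and -1.44 in control. Both classes were high or low in the same libraries, and the range within a group was wider for class II in all 5 groups, at 5.89 log2 units in HGG control against 2.14 for class I. The difference class II minus class I was -0.69, -1.50 and -0.27 in the HGG libraries labelled Sox9-LOF, 1.03, -0.41 and 1.03 in HGG tumours with Sox9-GOF and 0.94, -2.17 and 1.68 in HGG control. It stayed between -0.52 and 0.70 in the 6 EPN libraries. The groups set against each other below overlapped in all of these means, and the difference has no test because the members were chosen with results known.

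**Figure D3:**
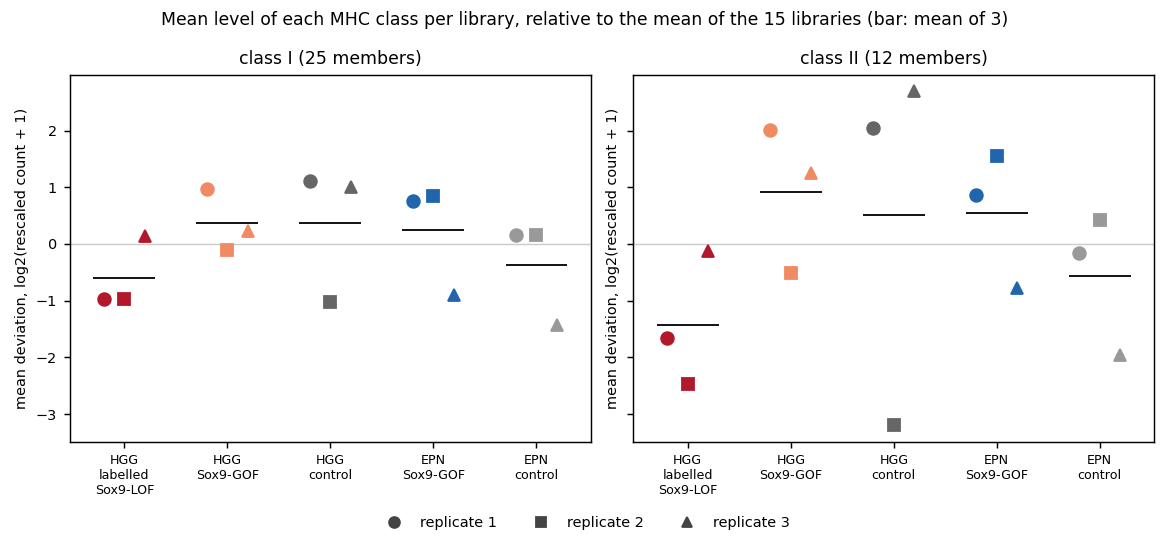
Mean over 25 class I members (left) and 12 class II members (right) of the deviation of each gene from its own 15-library average, in log2(rescaled count + 1), for each library, with replicates as separate symbols and group means as bars. HGG control spans -3.20 to 2.69 for class II and -1.03 to 1.114 for class I.

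Markers of immune cells, some of which make class II, differed between the same libraries. Summed over 10 B and plasma cell markers, all found, the libraries labelled Sox9-LOF had 66.6, 70.4 and 185 rescaled counts, HGG Sox9-GOF 170.1, 107 and 3887 and HGG control 13922, 67.7 and 1983. EPN Sox9-GOF had 9784, 6157 and 141 and EPN control 437, 411 and 1159. T and NK cell markers (13 of 14 found) summed to 102, 82.9 and 526 in the HGG libraries labelled Sox9-LOF, 1083, 237 and 687 in HGG tumours with Sox9-GOF, 1984, 36.9 and 4140.2 in HGG control, 712, 1209.5 and 80.7 in EPN Sox9-GOF and 353, 488 and 90.2 in EPN control. HGG control 2, lowest of its group for the MHC genes, was also lowest in T and NK cell and in B cell markers, and so was EPN Sox9-GOF 3; EPN control 3 was lowest in T and NK cell markers but highest in B cell markers. Dendritic cell markers (9 of 9 found) summed to 526, 481 and 860.3 in the HGG libraries labelled Sox9-LOF, 1135, 653 and 1086 in HGG tumours with Sox9-GOF and 1229, 605 and 1695 in HGG control, and to 652, 842 and 183 in EPN Sox9-GOF and 391, 514 and 422 in EPN control. Microglia and macrophage markers summed to 21448, 21743 and 22976 in the HGG libraries labelled Sox9-LOF, 41806, 29538 and 46751 in HGG tumours with Sox9-GOF and 24354, 13879.5 and 48799 in HGG control, and to 31216, 66402 and 21477 in EPN Sox9-GOF and 68238, 50207 and 31594 in EPN control. Within HGG control Cd74 ranged between 244 and 56721, and the microglia and macrophage sum between 13879.5 and 48799. There the B and plasma cell sum ranged between 67.7 and 13922, and the T and NK cell sum between 36.9 and 4140.2. The dendritic cell sum ranged between 605 and 1695. HGG control 2 and EPN Sox9-GOF 3 were the lowest of their groups in the dendritic cell and the microglia and macrophage sums too. EPN control 3 was lowest of its group in the microglia and macrophage sum but not in the dendritic cell sum. In these lists no marker was at 0 in all 3 libraries of any group. The part of these cells in the MHC levels was not tested.

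The first comparison set HGG tumours labelled Sox9-LOF against HGG control. Most members had lower values in the libraries labelled Sox9-LOF: 20 of 24 class I and 12 of 12 class II members tested had a negative fold change, and 4 class I members (H2-Bl, H2-Q2, H2-T24 and H2-T3) a positive one, but none passed the test. The median log2 fold change was -1.30 over 24 class I and -1.30 over 12 class II members, against 0.011 over all 14861 genes tested. Setting H2-Ea-ps at its lower bound could not move the class II median, because it stayed the lowest of the 12 values. Neither any of the 37 members tested nor any of the 14861 genes passed an adjusted p of 0.05 in limma (0%). At an unadjusted p under 0.05 there were 9 of 37 members against 17.3% of all genes, 2 of them higher against 9.12% and 7 lower against 8.14%. edgeR called 0 members and 0% of all genes. DESeq2 called 6 members (H2-D1, H2-Ea-ps, H2-L, H2-Q10 and Tap1 lower, H2-T24 higher) against 9.06% of all genes. With the spread estimated over all 15 libraries, limma called 3 (H2-D1, H2-Ea-ps and H2-L) against 7.19% of all genes.

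H2-D1 averaged 1578 ± 782 rescaled counts in the libraries labelled Sox9-LOF, against 18378 ± 9575 in HGG control (SD, n = 3 each), and its log2 fold change was -3.48 (SE 0.57, adjusted p = 0.143). H2-L, a heavy chain gene of some strains whose reads may be shared with H2-D1, had 1.17, 2.27 and 4.45 against 53.2, 18.5 and 45.4, with a log2 fold change of -3.40 (SE 0.72, adjusted p = 0.143). For H2-Ea-ps the mean of the HGG controls was at least 868-fold above 3 reads per library labelled Sox9-LOF, where 0 were found. Set against single controls the bound is 1257-fold for HGG control 1 and 1346-fold for HGG control 3 but only 1.80-fold for HGG control 2. The peptide supply genes and Nlrc5 had weaker changes than H2-D1 and H2-L. Tap1 had -1.70 (SE 0.70, adjusted p = 0.283), Tap2 -1.44 and Psmb9 -1.87. Psmb8 had -1.15, Psmb10 -1.14, Tapbp -1.09 and Nlrc5 -1.31. Among class II, Cd74 had -1.33 (SE 2.09, adjusted p = 0.774), H2-Ab1 -1.88 (SE 1.70, adjusted p = 0.598) and Ciita -1.69 (SE 1.77, adjusted p = 0.652), with standard errors about as large as the changes.

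Both H2-T24 and H2-T3, class I genes of the T region, were on the other side. H2-T24 had 297, 303 and 449.6 rescaled counts in the libraries labelled Sox9-LOF against 109, 152 and 207 in HGG control, with a log2 fold change of 1.18 (SE 0.32, adjusted p = 0.174). H2-T3, which encodes the thymus leukaemia antigen, had 60.8, 53.4 and 122 against 32.5, 4.10 and 30.5, with 2.07 (SE 0.81, adjusted p = 0.267). In these genes the groups did not overlap, and the groups also did not overlap in H2-D1, H2-L, H2-Ea-ps and H2-Ke6, which were lower; over all genes 12.8% were higher and 11.7% lower without overlap. Mir6236 and Lars2, to which ribosomal RNA reads are often assigned in mouse data, also separated the groups, with 244 ± 62.2 and 3091 ± 634 rescaled counts in the libraries labelled Sox9-LOF against 2539 ± 808 and 8937 ± 1144 in HGG control (SD, n = 3 each), and the part of this in the MHC values was not tested. Without HGG control 2 the medians were -2.04 for class I and -2.91 for class II, 33 of 37 members were at an unadjusted p under 0.05 against 18.4% of all genes, and 1 member, H2-Ea-ps, was called (adjusted p = 0.00225), against 0.0404% of all genes. Leaving out any other library gave 4 to 11 members at that p, counts for which no share over all genes is given. Without HGG control 2 the peptide supply genes and Nlrc5 ran between -3.01 (Psmb9) and -1.78 (Psmb10), with -2.51 for Tap1, and Cd74 had -3.85, H2-Ab1 -3.80 and Ciita -3.74, none of them called. Without HGG control 3 the class II median was -0.39.

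Outside the members, the listed regulators of MHC genes (Irf1, Rfx5 and others), class I peptide supply genes, class II processing genes, class I-like genes without an H2- symbol and interferon-stimulated genes gave 0 calls each in limma. 18 of 23 interferon-stimulated genes and 11 of 17 regulators had a negative fold change, with medians of -0.36 and -0.32. The smallest p-values of these lists belonged to Fcgrt, the neonatal Fc receptor, with a log2 fold change of -1.49 (SE 0.37, adjusted p = 0.165), to calnexin (Canx), a chaperone of class I heavy chains, with 0.76 (SE 0.20, adjusted p = 0.172), and to Stat2, a transducer of interferon signals, with -1.44 (SE 0.39, adjusted p = 0.174).

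The next comparison set HGG Sox9-GOF against the same HGG controls. Class II members tended to have positive and class I members negative fold changes: the median log2 fold change was 0.53 over 12 class II members, 11 of them positive, and -0.28 over 27 class I members, 10 of them positive, against 0.033 over all 15092 genes. No member and no gene was called in limma (0%), and 5 of 40 members were at an unadjusted p under 0.05 against 22.7% of all genes, 4 of them higher against 11.7% and 1 lower against 11%. edgeR called 0 members and 0% of all genes. DESeq2 called 2 members, H2-T24 and H2-T3, both higher, against 15% of all genes. With the spread of all 15 libraries limma called 1, H2-T24, against 14.8% of all genes. H2-T24 had 354, 399.9 and 557 rescaled counts in HGG Sox9-GOF against 109, 152 and 207 in HGG control, and its log2 fold change was 1.53 (SE 0.31, adjusted p = 0.0705). H2-T3 had 103, 97.6 and 71.9 against 32.5, 4.10 and 30.5, with 2.40 (SE 0.78, adjusted p = 0.143). H2-T22, whose product is a ligand of some gamma delta T cells, had only 25.8, 8.81 and 13.2 against 3.17, 2.05 and 6.39, with 1.81 (SE 0.69, adjusted p = 0.192), and H2-Ke6, a steroid dehydrogenase gene inside the complex, 141, 215 and 192 against 308, 533 and 254, with -0.92 (SE 0.34, adjusted p = 0.181). The groups did not overlap in these 4 genes, nor in H2-Bl and H2-Q2 (higher) or H2-M10.2 (lower), and over all genes 15.3% were higher and 15.2% lower without overlap. Mir6236 also separated these groups, with 485 ± 352 rescaled counts in HGG Sox9-GOF against 2539 ± 808 in HGG control (SD, n = 3 each). Lars2 overlapped, and the part of this in the MHC values was not tested.

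The main chains of both classes overlapped between HGG Sox9-GOF and HGG control. Log2 fold changes were -0.38 (SE 0.78, adjusted p = 0.813) for H2-K1, -1.41 (SE 0.82, adjusted p = 0.356) for H2-D1, 0.53 (SE 1.60, adjusted p = 0.878) for H2-Ab1 and 0.81 (SE 2.03, adjusted p = 0.851) for Cd74. The class I median turned from -0.28 to 0.23 without HGG control 1. The sign of the class II changes rested on HGG control 2 and on the method. edgeR and DESeq2, which average counts before taking logs, gave -0.59 and -0.61 for H2-Ab1 and -1.01 and -1.03 for Cd74, and class II medians of -0.31 and -0.33. Without HGG control 2 the class II median in limma was -0.90 in place of 0.53, Cd74 had -1.70 and H2-Ab1 -1.39, and the class I median was -0.995, with -1.21 for H2-K1 and -1.97 for H2-D1. The members at an unadjusted p under 0.05 then numbered 15 of 40, 12 of them lower, against 20.2% of all genes. They numbered 2 to 5 when any other library was left out, with no share over all genes given for those fits. The 5 lists outside the members again gave 0 calls. Among them the smallest p-values belonged to Rela, an NF-kB subunit, with -1.20 (SE 0.21, adjusted p = 0.0594), to Creb1, which binds cyclic AMP elements, with 1.00 (SE 0.22, adjusted p = 0.0725), and to Canx with 0.89 (SE 0.20, adjusted p = 0.0784). Of the class II processing genes 7 of 11 had a positive fold change, with a median of 0.57.

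**Figure D4:**
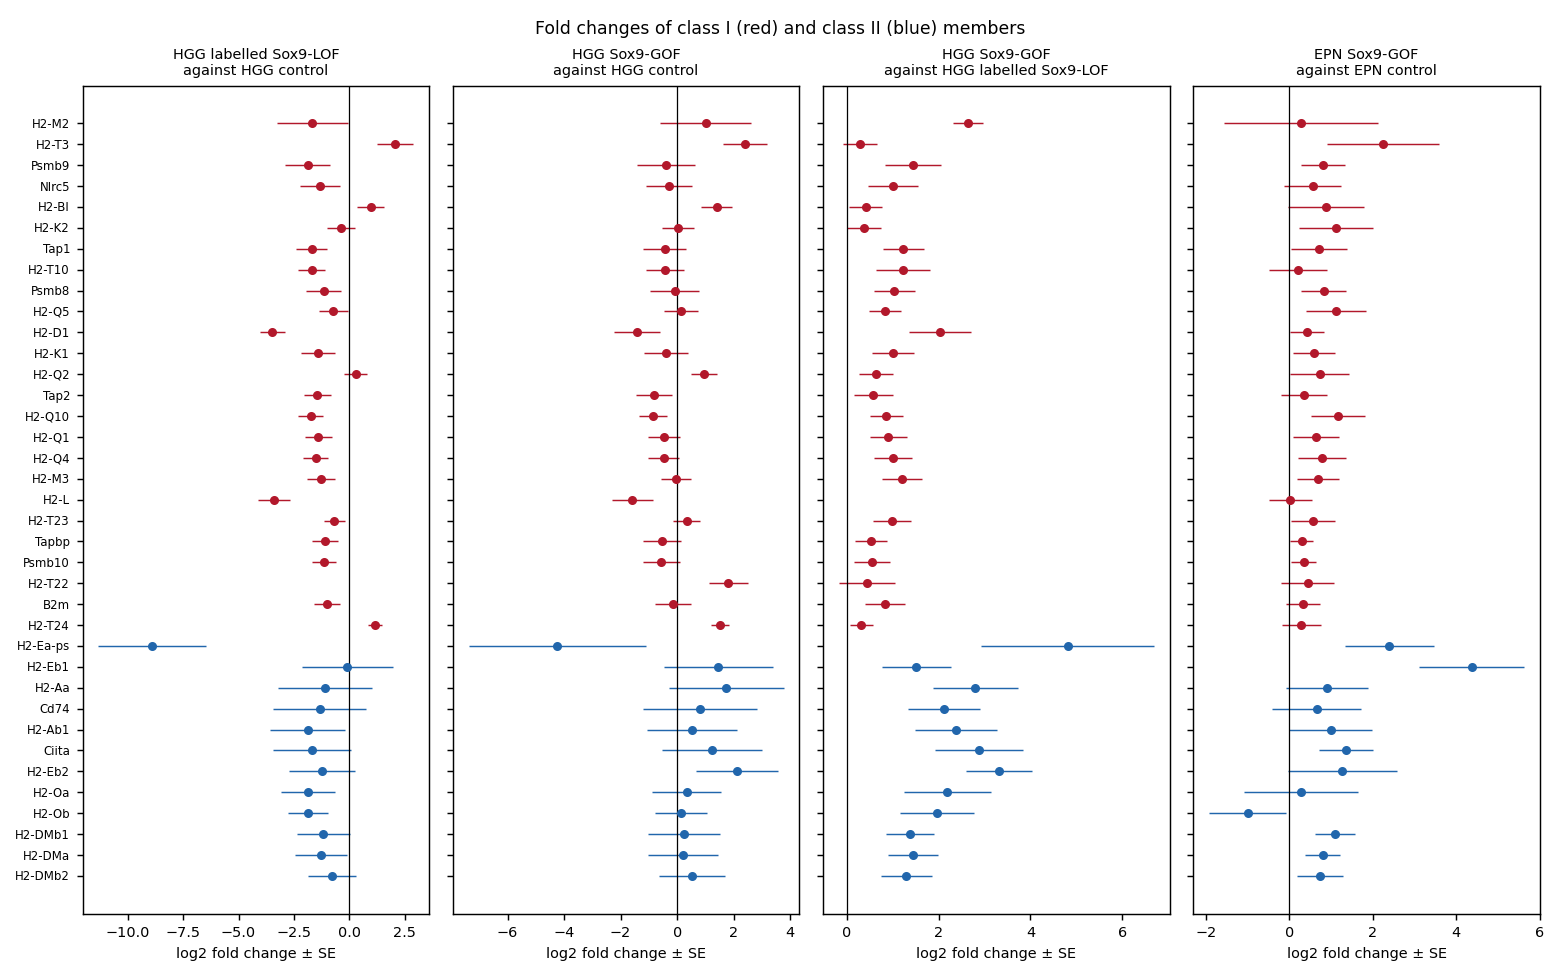
Log2 fold change and its standard error (limma) for each tested class I (red) and class II (blue) member in 4 comparisons. Class II error bars are the longer ones in both comparisons with HGG control, where their median SE was 1.60 (HGG labelled Sox9-LOF) and 1.52 (HGG Sox9-GOF) against 0.62 and 0.64 for class I.

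HGG Sox9-GOF was also set directly against HGG tumours labelled Sox9-LOF, a comparison free of the HGG controls. All 36 class I and class II members tested had a positive fold change, with a median log2 value of 2.15 over 12 class II and 0.88 over 24 class I members against -0.023 over all 14873 genes. Again no member and no gene passed the adjusted threshold in limma (0%). At an unadjusted p under 0.05, 11 of 12 class II and 9 of 24 class I members were higher in HGG Sox9-GOF, against 3.95% of all genes. None was lower, against 3.46% of all genes, and either direction held 7.41%. edgeR called 0 members and 0% of all genes. DESeq2 called 3 members as higher (H2-D1, H2-Eb2 and H2-M2), against 0.937% of all genes in either direction. With the spread of all 15 libraries no member was called, against 0.00662% of all genes, and 3 of 38 were at an unadjusted p under 0.05 against 5.33%. The count of 20 members rested on single libraries: it was 2 without HGG Sox9-GOF 1 against 4.6% of all genes, 9 without HGG Sox9-GOF 3 against 6.1%, and 4 without either the first or the second library labelled Sox9-LOF, against 6.14% and 5.99%. Without HGG Sox9-GOF 2 or the third library labelled Sox9-LOF it was 21 and 29, where no share over all genes is given. The class II median ran between 1.46 and 3.01 when single libraries were left out, and that of class I between 0.62 and 1.29.

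H2-M2, a class I gene at chr17:37480851-37483552, had a log2 fold change of 2.64 (SE 0.32, adjusted p = 0.310). It had 165, 149 and 164 rescaled counts in HGG Sox9-GOF against 19.9, 20.4 and 36.7 in the libraries labelled Sox9-LOF. It had the smallest unadjusted p of all members and comparisons, 4.28e-05 in limma. HGG control, with 507, 4.10 and 208, lay on both sides of these values. H2-Eb2, the second E beta gene, had 289, 82.2 and 118 against 7.01, 7.95 and 39.0, with 3.32 (SE 0.72, adjusted p = 0.578), and Ciita had 2.88 (SE 0.97, adjusted p = 0.620). In these 3 genes alone among the members the groups did not overlap, against 6% of all genes that were higher without overlap. H2-Aa had 2.80 (SE 0.92, adjusted p = 0.620), H2-Ab1 2.38 (SE 0.88, adjusted p = 0.645) and Cd74 2.11 (SE 0.78, adjusted p = 0.645). H2-D1 had 2.04 (SE 0.68, adjusted p = 0.620), H2-M3 1.21 (SE 0.43, adjusted p = 0.640), H2-K1 1.00 (SE 0.45, adjusted p = 0.675) and B2m 0.84 (SE 0.44, adjusted p = 0.710). All 11 class II processing genes outside the members had positive fold changes with a median of 0.70, none called; cathepsin S (Ctss), the protease that trims the invariant chain, had 1.21 (SE 0.38, adjusted p = 0.620), and Fcgrt 0.97 (SE 0.27, adjusted p = 0.620). The summed markers of microglia and macrophages were higher in all 3 HGG Sox9-GOF libraries than in any library labelled Sox9-LOF, and their part in these values was not tested.

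The comparison in the second model set EPN Sox9-GOF against EPN control. All 25 class I members and 11 of 12 class II members had a positive fold change, with median log2 values of 0.59 and 0.95 against 0.045 over all 14591 genes. No member and no gene was called in limma (0%), and 1 of 38 members, H2-Eb1, was at an unadjusted p under 0.05 against 15.1% of all genes, or 4.31% among those higher. edgeR called 0 members and 0% of all genes. DESeq2 called H2-Eb1, against 5.78% of all genes, while limma with the spread of all 15 libraries called 0 members against 0.86% of all genes. H2-Eb1 had 262, 5671 and 556 rescaled counts in EPN Sox9-GOF against 64.4, 132 and 10.9 in EPN control, all 3 above every control, and a log2 fold change of 4.37 (SE 1.25, adjusted p = 0.186); 9.45% of all genes were higher without overlap. Ciita had 1.35 (SE 0.65, adjusted p = 0.385), H2-DMb1 1.09 (SE 0.48, adjusted p = 0.345), H2-Ab1 0.99 (SE 1.00, adjusted p = 0.705) and Cd74 0.66 (SE 1.06, adjusted p = 0.817). H2-K1 had 0.59 (SE 0.50, adjusted p = 0.650), H2-D1 0.42 (SE 0.40, adjusted p = 0.683), B2m 0.32 (SE 0.40, adjusted p = 0.758), Psmb8 0.83, Psmb9 0.80 and Tap1 0.72. Mir6236 and Lars2 separated these groups as well. They had 777 ± 540 and 7031 ± 5061 rescaled counts in EPN Sox9-GOF against 191 ± 67.5 and 2306 ± 475 in EPN control (SD, n = 3 each). The part of this in the MHC values was not tested. The third library of each EPN group was its lowest for most members, but H2-Ea-ps was highest in EPN Sox9-GOF 3, with 128, 129 and 836 in EPN Sox9-GOF against 54.9, 157 and 10.9 in EPN control. Without EPN Sox9-GOF 3, 16 of 38 members were at an unadjusted p under 0.05 against 13.7% of all genes, and without EPN control 2 there were 5 against 11%, all of them higher. Leaving out any other library gave 1, with no share over all genes given for those fits. Leaving out EPN control 3 brought the medians to 0.13 for class I and 0.32 for class II, and leaving out EPN Sox9-GOF 3 to 1.16 and 1.71. Outside the members, 20 of 23 interferon-stimulated genes and 13 of 14 peptide supply genes had positive fold changes, while 10 of 11 class II processing genes had negative ones, and none was called. Psme1, a proteasome activator subunit, had the smallest p of these lists, with 0.65 (SE 0.26, adjusted p = 0.297).

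The gain-of-function effects in both models were compared by the difference EPN minus HGG. None of 39 members was called in limma, against 6.07% of 15145 genes, and 2 members, H2-Ke6 and H2-Q10, were at an unadjusted p under 0.05 against 27.1% of all genes. edgeR called 0 members against 5.37% of all genes, the spread of all 15 libraries gave 0 against 10%, and same-numbered libraries as pairs gave 0 against 2.42%. DESeq2 called H2-Eb1, against 16.4% of all genes. The median difference was 0.87 over 26 class I and 0.16 over 12 class II members, against -0.027 over all genes. The part of the Mir6236 and Lars2 differences between these groups in such values was not tested. Differences were 1.84 (SE 0.98, adjusted p = 0.253) for H2-D1, 0.97 (SE 0.98, adjusted p = 0.564) for H2-K1, 2.92 (SE 2.54, adjusted p = 0.495) for H2-Eb1 and -0.15 (SE 2.52, adjusted p = 0.980) for Cd74. Without HGG control 2 the class II median was 2.11 and that of class I 1.63, and 15 of 39 members, all higher, were at an unadjusted p under 0.05 against 27% of all genes, with 0 called against 4.05%. H2-Eb1 then had 5.34, H2-D1 2.39, H2-K1 1.80 and Cd74 2.36. Without any other library 0 to 4 members were at that p, with no share over all genes given for those fits. Without HGG control 3 the class II median was -0.82. Outside the members 1 gene of the lists was called, Rela, with 1.43 (SE 0.36, adjusted p = 0.0433).

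EPN control was set against HGG control, a comparison of tumour models that differed in 15.3% of 15105 genes in limma. None of the 38 members tested was among these, and 2 were at an unadjusted p under 0.05 against 33.3% of all genes. edgeR called 0 members against 15% of all genes, and DESeq2 6 (H2-Ea-ps, H2-Eb1, H2-Eb2, H2-Oa and H2-Q10 lower, H2-T24 higher) against 29.2% of all genes. With the spread of all 15 libraries limma called H2-Q10 and H2-T24, against 27.6% of all genes, and with same-numbered libraries as pairs 0 members against 7.56% of all genes. H2-Q10, a secreted class I heavy chain known from liver, had 279, 254 and 59.1 rescaled counts in EPN control against 1093, 297 and 906 in HGG control, with a log2 fold change of -2.04 (SE 0.74, adjusted p = 0.113), and it was the 1 member whose groups did not overlap, against 18.4% of all genes that were lower without overlap. H2-T24 had 604, 387 and 185 against 109, 152 and 207, with 1.21 (SE 0.48, adjusted p = 0.131). H2-Eb1 had 64.4, 132 and 10.9 against 5298, 36.9 and 6767, with -4.56 (SE 2.08, adjusted p = 0.180). Mir6236 and Lars2 separated these groups too. They had 191 ± 67.5 and 2306 ± 475 rescaled counts in EPN control against 2539 ± 808 and 8937 ± 1144 in HGG control (SD, n = 3 each). The part of this in the MHC values was not tested. Without HGG control 2, limma called 5 members as lower in EPN control (H2-Ea-ps, H2-Eb1, H2-Eb2, H2-T10 and Psmb10) against 12.1% of all genes in either direction, H2-Eb1 having -7.00 (adjusted p = 0.0150). At an unadjusted p under 0.05 there were then 24 of 38, all lower, against 30.7% of all genes. Leaving out any other library gave 0 to 2, with no share over all genes given for those fits. Without HGG control 2 the median was -2.68 in place of -0.42 for class II and -1.44 in place of -0.85 for class I. Without HGG control 3 the class II median turned to 0.66.

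In the same comparison of controls limma called 11 of the 74 genes tested of the lists outside the members, or 14.9%, against 15.3% of all genes. They were 5 of 9 class I-like genes without an H2- symbol, 2 of 14 peptide supply genes, 2 of 11 class II processing genes, 2 of 17 regulators and 0 of 23 interferon-stimulated genes. All 9 class I-like genes tested had positive fold changes. Raet1e, a ligand of the NK cell receptor NKG2D, averaged 157 ± 193 rescaled counts in EPN control and 0.501 ± 0.436 in HGG control (SD, n = 3 each), with a log2 fold change of 5.98 (SE 0.98, adjusted p = 0.0132). Fcgrt had 1.70 (SE 0.31, adjusted p = 0.0184), and cathepsin L (Ctsl), a protease of class II processing, 1.17 (SE 0.19, adjusted p = 0.0129). The other called genes, named after their values were seen, were Hfe with 1.58 (SE 0.33, adjusted p = 0.0267), Raet1d with 3.92 (SE 0.84, adjusted p = 0.0285) and Ulbp1 with 2.99 (SE 0.69, adjusted p = 0.0359) among the class I-like genes. Cathepsin D (Ctsd) had 1.48 (SE 0.37, adjusted p = 0.0431), Canx 0.75 (SE 0.17, adjusted p = 0.0328), Sec61a1 1.24 (SE 0.28, adjusted p = 0.0331) and Ifngr2, a chain of the interferon gamma receptor, 1.42 (SE 0.36, adjusted p = 0.0444). Rfxap, a subunit of the RFX complex of class II promoters, fell, with -0.88 (SE 0.23, adjusted p = 0.0482).

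Reads of pairs of members were also compared within each library, so that the total of MHC RNA in a library enters both sides. These ratios were chosen after their values were seen and are given without a test. For every 100 reads of H2-K1 there were 16.0, 20.3 and 17.1 reads of H2-D1 in the HGG libraries labelled Sox9-LOF, 50.2, 18.0 and 52.7 in HGG tumours with Sox9-GOF and 53.2, 108 and 70.8 in HGG control. EPN Sox9-GOF had 50.6, 41.1 and 55.5 and EPN control 39.5, 59.8 and 68.9. All 3 libraries labelled Sox9-LOF and HGG Sox9-GOF 2 were thus between 16.0 and 20.3, and the other 11 libraries between 39.5 and 108. B2m per 100 H2-K1 reads varied only between 79.5 and 166 over the same 15 libraries.

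Of 18 such ratios computed, the same 4 libraries were the highest 4 or the lowest 4 in 7. They were the lowest in H2-D1 and in H2-Ea-ps, where they alone were at 0, and the highest in H2-Eb1 over H2-Ab1, in H2-Bl, H2-K2 and H2-T3 over H2-K1 and in H2-Q2 over H2-Q4. H2-Eb1 per 100 reads of H2-Ab1 was 60.5, 76.3 and 68.9 in the HGG libraries labelled Sox9-LOF, 21.4, 71.2 and 34.3 in HGG tumours with Sox9-GOF and 28.8, 9.42 and 27.4 in HGG control. In EPN it was 2.79, 37.0 and 33.7 in Sox9-GOF and 1.14, 2.01 and 1.21 in control. The EPN controls and EPN Sox9-GOF 1 were thus low in H2-Eb1 and the other EPN Sox9-GOF libraries were not. H2-Ea-ps per 100 reads of H2-Ab1 was 1.91, 0 and 0.792 in HGG Sox9-GOF, 23.4, 1.57 and 18.6 in HGG control, 1.35, 0.843 and 50.8 in EPN Sox9-GOF and 0.971, 2.39 and 1.21 in EPN control, and 0 in all libraries labelled Sox9-LOF, where 0 reads allow up to 0.282, 0.691 and 0.0571 (3 reads set against those of H2-Ab1). H2-Bl per 100 reads of H2-K1 was 6.53, 5.99 and 6.70 in the HGG libraries labelled Sox9-LOF, 3.02, 6.94 and 3.69 in HGG tumours with Sox9-GOF and 1.05, 1.58 and 1.12 in HGG control, and 0.717, 2.44 and 0.553 in EPN Sox9-GOF and 1.38, 0.623 and 0.593 in EPN control. H2-K2 per 100 reads of H2-K1 was between 5.96 and 6.42 in these 4 libraries and at most 3.75 in the other 11. H2-T3 per 100 reads of H2-K1 was between 0.789 and 1.06, against at most 0.571, and H2-Q2 per 100 reads of H2-Q4 between 27.4 and 31.3, against at most 22.8. H2-L kept to between 0.127 and 0.249 reads per 100 reads of H2-D1 in all 15 libraries. In the libraries labelled Sox9-LOF this rests on only 1, 2 and 4 H2-L reads, and in HGG Sox9-GOF 2 on 6. The upper limits given for H2-Ea-ps cover counting error only. H2 genes are among the most polymorphic of the mouse genome, the mm10 build named in the submitters' processing notes is that of 1 strain, and the labels name no strain, so the part of strain or of alignment in these ratios was not tested.

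**Figure D5:**
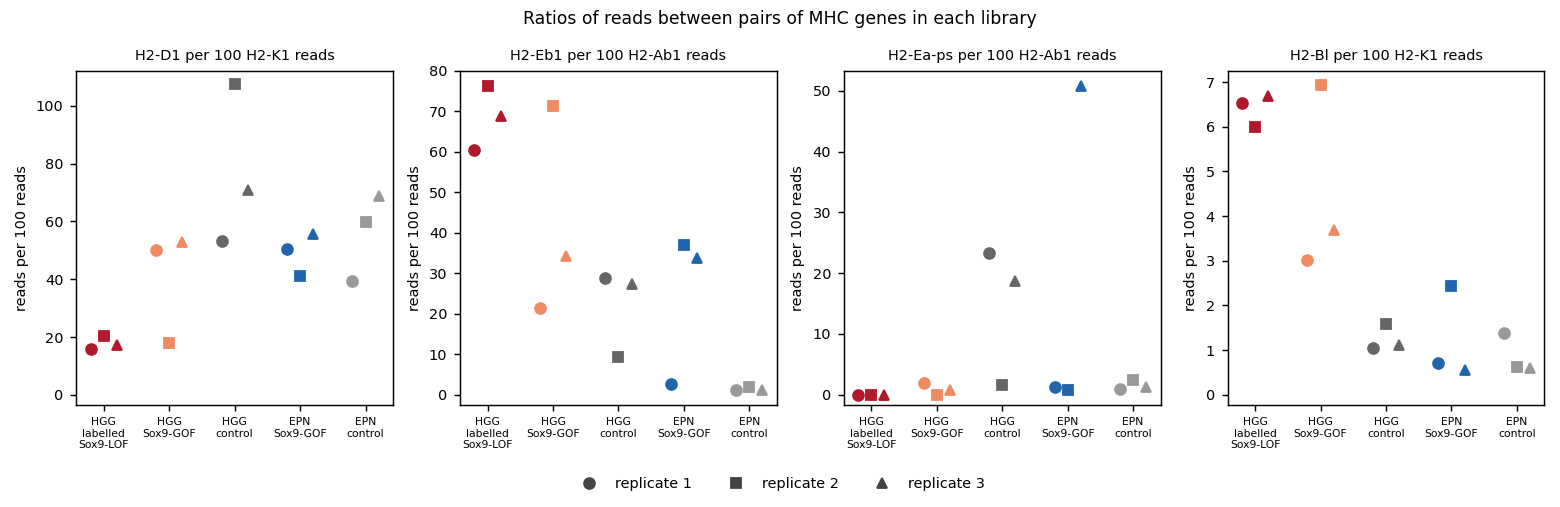
Reads of 4 MHC genes per 100 reads of H2-K1 or H2-Ab1 in each library, by group, with replicates as separate symbols. In the first panel the 3 libraries labelled Sox9-LOF and HGG Sox9-GOF 2 lie between 16.0 and 20.3 and the other 11 between 39.5 and 108.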

How the data were processed

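Poly(A) RNA of 15 mouse brain tumour samples was sequenced, from TruSeq stranded libraries per the labels' protocols. The submitters' processing notes list DESeq2 1.30.1, MultiQC 1.11, FastQC 0.11.7 and STAR 2.5.0a beside the mm10 build, without saying what each did; which program counted reads, how it treated strand and by which annotation is not given in the sources used here. The authors deposited 3 tables, each holding a signal per gene that is a read count divided by a size factor, as the values show: 100% were whole multiples of 1 read within 0.001 read. The reads recovered from them were rescaled over all 15 libraries by the median of ratios for levels per library and for both comparisons across tables.

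Tests used limma 3.58.1 (R 4.3.3, trended variance) on log2(normalized count + 1) for genes averaging 10 or more, adjusted over all genes by Benjamini-Hochberg and called under 0.05. Changes of low genes are understated on this scale. edgeR 4.0.16 and DESeq2 1.42.0 on the recovered reads, other filters, pseudocounts and scalings, and leaving out each library were alternatives. Scripts were tested on simulated data. The letters of the promoter motifs were set after the sequences had been seen. The members, lists and tests were chosen with earlier results of these data known. Named with full values were the main chains and loading genes, up to 4 further members per comparison by smallest p, every member called, and up to 3 genes of the 5 pathway lists per comparison; other names were chosen after values were seen. Same-numbered libraries of HGG Sox9-GOF and HGG control deviated together (r = 0.173, 0.444 and 0.225 across genes, which are not independent), so those numbers may pair the samples; in the other comparisons not all correlations passed 0.1.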

Additional observations from a re-analysis of the deposited data

How the results depend on the processing

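The count of 0 called members held in all 6 comparisons under no filter on low values, a pseudocount of 8, TMM scaling, edgeR and the replicate block. The replicate block, which takes same-numbered libraries as pairs, gave 0 called members in each comparison and changed no call, although 21 of 38 members then reached an unadjusted p under 0.05 in EPN Sox9-GOF against EPN control, in place of 1, against 14.5% of all genes. DESeq2 called 6 members in HGG labelled Sox9-LOF against HGG control, 2 in HGG Sox9-GOF against HGG control, 1 in EPN Sox9-GOF against EPN control, 6 in EPN control against HGG control, 3 in HGG Sox9-GOF against HGG labelled Sox9-LOF and 1 in the difference EPN minus HGG of the gain-of-function effects. With the spread of all 15 libraries, 3 members were called in HGG labelled Sox9-LOF against HGG control, 1 in HGG Sox9-GOF against HGG control and 2 in EPN control against HGG control. The cause of these differences was not tested. Leaving out single libraries gave 0 to 1 called members in HGG labelled Sox9-LOF against HGG control and 0 to 5 in EPN control against HGG control.

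In HGG Sox9-GOF against HGG control the sign turned in edgeR and DESeq2, with -0.59 and -0.61 for H2-Ab1, -0.39 and -0.40 for H2-Eb1, -1.01 and -1.03 for Cd74, -0.48 and -0.50 for H2-DMa and -0.43 and -0.44 for H2-DMb1. The difference EPN minus HGG also turned, with 1.99 and 1.95 for Cd74. Of 104 named member values, 25 changed sign when at least 1 single library was left out, and their log2 fold changes ran over the following ranges. In HGG labelled Sox9-LOF against HGG control they were -3.58 to 0.29 for H2-Aa, -2.52 to 1.21 for H2-Eb1 and -3.85 to 0.075 for Cd74. In HGG Sox9-GOF against HGG control they were -1.21 to 0.097 for H2-K1, -0.72 to 0.14 for B2m, -1.23 to 0.36 for Nlrc5, -1.25 to 0.067 for Tap1, -1.03 to 0.46 for Psmb8, -1.53 to 0.29 for Psmb9, -0.75 to 3.12 for H2-Aa, -1.39 to 1.59 for H2-Ab1, -0.97 to 2.76 for H2-Eb1, -1.70 to 2.21 for Cd74, -0.83 to 2.39 for Ciita, -1.24 to 1.10 for H2-DMa and -1.25 to 1.05 for H2-DMb1. In EPN Sox9-GOF against EPN control they were -0.11 to 1.16 for Nlrc5, -0.20 to 0.81 for Tap2, -0.013 to 0.53 for Tapbp and -0.18 to 1.77 for Cd74. In EPN control against HGG control they were -1.01 to 0.31 for H2-K1, -2.72 to 0.26 for H2-Ab1 and -2.77 to 1.16 for Cd74. For the difference EPN minus HGG they were -0.60 to 2.38 for H2-Ab1 and -1.56 to 2.36 for Cd74, and the class II median ran over -0.82 to 2.11. In HGG Sox9-GOF against HGG control the class I median ran over -0.995 to 0.23 and that of class II over -0.90 to 1.54. In EPN control against HGG control the class II median ran over -2.68 to 0.66. The class medians kept their sign with no filter, a pseudocount of 8, TMM scaling, the replicate block and the spread of all 15 libraries. For the medians the block, the shared spread, edgeR and DESeq2 were added after the data had been seen. In edgeR and DESeq2 the class II median of HGG Sox9-GOF against HGG control turned to -0.31 and -0.33, and the other medians kept their sign. The group means of the class II minus class I difference kept theirs with no filter, a pseudocount of 8 and TMM scaling. Read depth was lowest in HGG control 2, and a member at 0 reads could still be present below 3 reads per library.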

Other observations

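Several class I members below a mean of 10 rescaled counts had reads in most libraries. H2-M10.2, a gene of the H2-M10 family known from vomeronasal neurons, had 2.34, 3.41 and 8.90 rescaled counts in the HGG libraries labelled Sox9-LOF, 7.18, 7.34 and 6.14 in HGG tumours with Sox9-GOF and 9.52, 12.3 and 17.8 in HGG control, and 2.16, 8.72 and 4.80 in EPN Sox9-GOF and 0, 20.3 and 20.2 in EPN control. H2-M5 had 8.18, 1.14 and 13.4 rescaled counts in the HGG libraries labelled Sox9-LOF, 11.5, 11.7 and 11.4 in HGG tumours with Sox9-GOF and 11.9, 12.3 and 5.68 in HGG control, and 4.33, 5.23 and 4.80 in EPN Sox9-GOF and 1.06, 4.51 and 6.22 in EPN control. These levels stand on few reads per library, and no member of the H2-M10 family other than H2-M10.2 reached a mean of 2 rescaled counts.

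H2-Ke6, the member of neither class, did not share the swings of the others. It had 244, 215 and 248 rescaled counts in the HGG libraries labelled Sox9-LOF, 141, 215 and 192 in HGG tumours with Sox9-GOF and 308, 533 and 254 in HGG control, and 165, 332 and 281 in EPN Sox9-GOF and 184, 188 and 305 in EPN control, so that HGG control 2 was its highest library and not its lowest.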
